A study of Mus musculus with 2 samples.

Results

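Dendritic cells with a high Ccr7 signal were picked out of the sorted immune cells of irradiated mouse intestine and described gene by gene. They are 133 of the 19577 cells that passed the filters. The cells were chosen by counts of unique molecular identifiers (UMIs, 1 per captured RNA molecule). A member had at least 20 UMIs of Cd74 and H2-Ab1 together and at least 4 of Ccr7, Fscn1, Cacnb3 and Il4i1 together, hereafter the rule sum. It also had no UMI of the B cell factors Ebf1 and Pax5, none of the T cell genes Cd3e and Cd3d, and at most 1 of the macrophage genes C1qa, C1qb and C1qc. Since these counts chose the members, the levels of those genes are given below as a description and support nothing.

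The study made 1 droplet-based single-cell library from WT mice and 1 from mice whose genotype is given as DPF2 KO (knockout). All mice had received 10 Gy of X-rays, so the WT library is an irradiated control and no unirradiated sample was analysed here. Live cells from digested intestine were sorted by a viability dye and by GFP or tdTomato fluorescence, present or absent. The labels do not say which fluorescent fraction was loaded, which promoter or driver marked or deleted anything, how long after irradiation the tissue was taken, or how many mice were pooled. With 1 library per genotype no test is possible, no p-value is given, and genotype and library cannot be told apart.

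Dendritic cells take up antigen in tissue and present it to T cells. When they mature they gain the chemokine receptor CCR7, which guides them through lymph towards lymph nodes, and with it the actin-bundling protein fascin, costimulatory ligands for T cells and the chemokines CCL17 and CCL22, which attract T cells that carry CCR4. In the intestine this traffic carries food and microbial antigens to the mesenteric nodes and supports both tolerance and immunity. Type 1 dendritic cells are known for presenting antigen on MHC class I, and type 2 dendritic cells for priming helper T cells. Dpf2 encodes a subunit of the BAF chromatin remodelling complex.

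The WT library gave 61 members, 0.560% of its cells (95% Clopper-Pearson interval 0.428% to 0.719%), and the KO library 72, 0.829% (0.650% to 1.04%). All intervals here cover counting error only, not differences between mice or libraries. Those of levels and ratios also leave out differences between cells. The members held 607333 UMIs in WT and 721801 in KO, with a median of 9612 UMIs per cell (4418 to 25114) and 9539.5 (2631 to 20999). Both medians lie above those of all kept cells, 4690.5 in WT and 4235 in KO. The comparison class was immature dendritic cells, which passed the same gates with a rule sum of at most 1. They also had at least 2 UMIs of Flt3, Zbtb46, Xcr1, Clec9a and Cd209a together and none of Siglech or Fcgr1. There were 135 of them in WT and 32 in KO. The members' share of the 2 classes together was 31.1% in WT (24.7% to 38.1%) and 69.2% in KO (59.4% to 77.9%). The gates described next bear on that share, and it is not read as a difference between the genotypes.

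The name mature migratory dendritic cell was held against its markers, and those markers were found in only some of the cells. In WT, 48 of the 61 members (78.7%) passed on Ccr7 alone, and in KO 44 of 72 (61.1%). Ccr7 gave 88.8% of the 490 rule UMIs in WT and 77.3% of the 864 in KO. Fscn1, which encodes fascin, had a UMI in 2 WT members and 19 KO members, and 22 of the 23 WT UMIs came from 1 cell. Cacnb3, a calcium channel subunit, was seen in 2 and 10 cells, and Il4i1, a secreted amino acid oxidase, in 12 and 19. After every cell was thinned to 2000 UMIs, 1.64% of WT members had a Fscn1 UMI, close to the 1.37% of WT plasma cells, which should lack it and measure free RNA. In KO the thinned share was 19.4% (11.1% to 30.5%), against 1.48% of plasma cells. The dendritic cell factor Zbtb46 was detected in 30 of 61 WT and 47 of 72 KO members, and the growth factor receptor gene Flt3 in 20 and 26. After thinning, Zbtb46 was in 16.4% of WT members (8.15% to 28.1%) against 1.71% of plasma cells, and in 27.8% of KO members (17.9% to 39.6%) against 2.58%. Flt3 was in 13.1% (5.84% to 24.2%) against 2.51% in WT. In KO it was in 9.72% (3.999% to 19.0%) against 5.17% (3.46% to 7.38%), and those intervals overlap. For these reasons the cells are called Ccr7-high dendritic cells below.

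**Figure D1:**
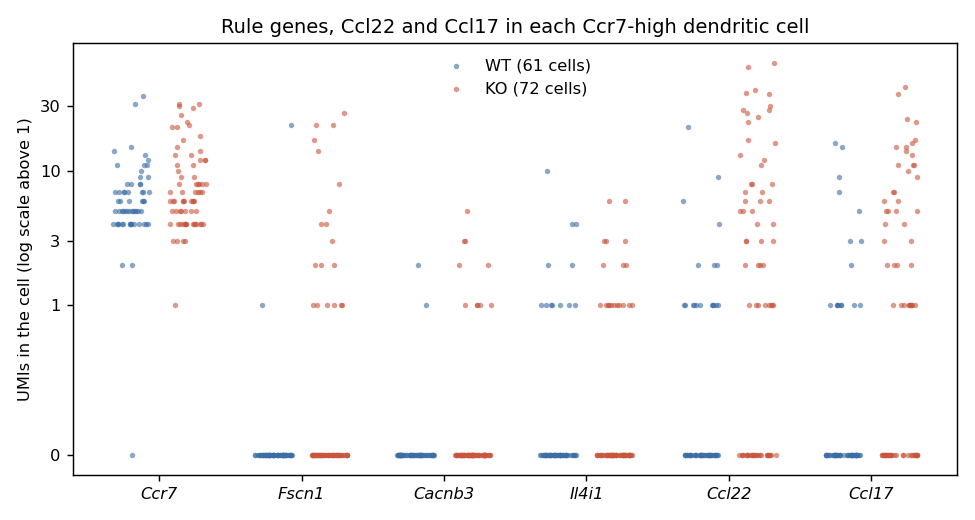
UMIs of the 4 rule genes and of Ccl22 and Ccl17 in each Ccr7-high dendritic cell; the vertical axis is UMIs in the cell on a log scale above 1, each point is 1 cell, blue for the 61 WT cells and red for the 72 KO cells. Ccr7 was detected in 60 WT and 72 KO cells, while Fscn1 was detected in 2 WT and 19 KO cells.

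The order of the gates shows where cells were lost. A rule sum of at least 4 was met by 491 WT and 782 KO cells, of which 369 and 570 also had the MHC class II signal. The demand for no Ebf1 or Pax5 UMI then left 148 and 98, the T cell gate 100 and 79, and the C1q gate 61 and 72. In KO this took out cells with several UMIs of Fscn1, Cacnb3 and Il4i1, and whether those were dendritic cells was not tested. Of cells with at least 3 UMIs of Fscn1, Cacnb3 and Il4i1 together, 5 in WT and 30 in KO failed the B cell gate only, against 4 and 16 that passed every gate. Of those that failed, 3 and 21 had just 1 or 2 UMIs of the gate genes. Levels here are UMIs of a gene per 1000000 UMIs of the class, written UPM. Ebf1 stood at 642 UPM in all WT cells and 1713 in all KO cells, and its part in these losses was not tested. A gate of at most 2 Ebf1 and Pax5 UMIs, with at most 1 UMI of 4 other B cell genes, gave 79 WT and 169 KO members. This gate was chosen after seeing the data. It added 22 WT and 99 KO cells and dropped a few of the 133. In the added cells Ccl22 stood at 56.7 and 1019 UPM and the B cell antigen gene Ms4a1 at 0 and 3.38.

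Just inside the threshold, at a rule sum of 4, were 15 cells in each library, with Ccl22 at 20.4 UPM in WT and 278 in KO. Just outside it, at 3, were 27 WT and 16 KO cells, with Ccl22 at 109 and 359. Cd83 stood at 395 and 962 just inside and at 590 and 923 just outside, so these values give no step at the threshold.

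Marker genes of 13 cell types were summed in the members. Rule or gate genes belong to the mature dendritic, B cell, T cell and macrophage lists. Those sums follow in part from the selection and support nothing. The mature dendritic list, all 5 of its genes detected, stood at 901 UPM in WT and 1992 in KO, and the immature dendritic list at 532 and 549. The B cell list stood at 41.2 and 20.8, against 893 and 2134 in all cells. In each library 2 of its 7 genes were at 0, the gated Ebf1 and Pax5. The T cell list stood at 37.9 and 19.4, with 3 of 8 genes at 0, among them the gated Cd3e and Cd3d. The monocyte list stood at 2206 and 863, of which the myeloid gene Plac8 gave 1821 and 716. In all cells that list stood at 1581 and 1228, so WT members lay above their library for monocyte genes and KO members below. In WT members it also exceeded both dendritic lists together, which goes against the name. That excess rested on Plac8, and the rest of the monocyte list lay below each dendritic list. In immature cells the monocyte list stood at 1619 in WT and 1110 in KO. Their mature and immature dendritic lists stood at 40.5 and 667 in WT and at 133 and 627 in KO. Those dendritic sums follow in part from how the immature cells were chosen and support nothing. By the monocyte list alone, immature cells also lay above all cells in WT and below them in KO. So that order was not particular to the members. The plasma cell list stood at 12629 and 4807, most of it immunoglobulin RNA: Igkc was found in all 133 members, at 6002 UPM in WT and 1517 in KO, against 45077 and 24367 in the other cells. The neutrophil list stood at 18.1 and 134, the macrophage list at 184 and 101, the plasmacytoid dendritic list at 611 and 391 and the stromal list at 273 and 145. Epithelial genes stood at 41.2 and 73.4, mast cell or basophil genes at 137 and 150, and NK or innate lymphoid genes at 84.0 and 47.1. Their part in the differences between the libraries was not tested.

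One WT member stood apart. It held 25114 UMIs, among them 699 of Igha and 258 of Jchain, beside 4 of Ccr7, and the doublet caller did not mark it. Of the 3645 Igkc UMIs of WT members it held 1672. It also held 211 of the 629 UMIs of Hsp90b1 in WT members. The WT Igkc level and plasma cell list above include this cell. Below, the counts of genes 2-fold apart and the ratios of Hsp90b1, Pdia4, Sdf2l1, Mzb1 and Ly6d are given with and without it. Other WT values of the members include it unless a subset is named.

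Depth and library checks were as follows. The files held 10958 WT barcodes with 64786549 UMIs and 8794 KO barcodes with 49590755. The 2 libraries shared 24 barcode sequences, none of them among the members. Scrublet called 637 (5.85%) WT and 416 (4.79%) KO cells as doublets, 1 member in each library, and these were kept. Xist RNA without Y-linked RNA was seen in 14 WT and 17 KO members, the reverse in 22 and 23, and both in 6 and 14, so each library held cells of both kinds.

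Ccl22 and Ccl17, a ranked pair that was higher in KO, are neighbours in the genome. Their RefSeq start sites lie 64.8 kb apart on the plus strand of chromosome 8. The 250 bases before each start are shown because the genes differed together, with those of Cd80 and Apol7c because a motif searched was found there. All are from RefSeq on GRCm38.p6, 5′ to 3′ on the gene's strand, at chr8:94745434-94745683 (plus) for Ccl22, chr8:94810203-94810452 (plus) for Ccl17, chr16:38458683-38458932 (plus) for Cd80 and chr15:77533316-77533565 (minus) for Apol7c. Capitals mark motif matches.
Ccl22: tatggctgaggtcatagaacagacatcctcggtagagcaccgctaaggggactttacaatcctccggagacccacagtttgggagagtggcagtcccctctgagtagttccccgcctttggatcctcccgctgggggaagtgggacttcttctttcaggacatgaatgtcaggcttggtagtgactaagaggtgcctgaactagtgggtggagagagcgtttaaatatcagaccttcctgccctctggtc
Ccl17: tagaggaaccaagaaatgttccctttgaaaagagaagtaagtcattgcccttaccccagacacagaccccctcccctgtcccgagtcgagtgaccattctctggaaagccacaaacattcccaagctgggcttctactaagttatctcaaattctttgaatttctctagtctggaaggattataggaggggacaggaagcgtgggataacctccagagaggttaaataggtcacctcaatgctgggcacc
Cd80: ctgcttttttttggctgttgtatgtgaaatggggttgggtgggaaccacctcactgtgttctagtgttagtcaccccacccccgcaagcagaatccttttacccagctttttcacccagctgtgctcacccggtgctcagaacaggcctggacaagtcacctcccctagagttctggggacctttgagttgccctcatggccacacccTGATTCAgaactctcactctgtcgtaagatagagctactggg
Apol7c: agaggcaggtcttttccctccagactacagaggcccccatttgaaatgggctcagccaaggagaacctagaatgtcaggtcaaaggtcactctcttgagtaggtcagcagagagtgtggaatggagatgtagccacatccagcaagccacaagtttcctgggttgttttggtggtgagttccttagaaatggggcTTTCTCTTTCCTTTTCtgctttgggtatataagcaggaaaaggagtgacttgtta

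Promoters from 250 bases before to 50 after the start were searched on both strands for 32 of 42 genes sought, 40 promoters in all. Both NF-kB forms searched (GGGA or GGGG, then 2 bases of any kind, then TTCC) were in none of the 40, and 2.92% of all 32851 promoters in the table hold either form. The AP-1 form TGANTCA was in those of Creb5, Bcl2a1a and Cd80, and in 7.81% of all promoters. The interferon element (GAAA, 2 bases of any kind, GAAA) was in that of Apol7c, as overlapping matches on the opposite strand, and in 3.44% of all promoters. A match describes the letters and is not a measured binding site.

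The log2 ratio of KO over WT was taken after adding 10 UPM to each level. To be eligible a gene needed 50 or more UMIs over both classes compared and detection in 5% or more of the cells of either. Of 3839 eligible genes in the members, 122 (3.18%) were at least 2-fold higher in KO and 118 (3.07%) at least 2-fold lower, so 6.25% were 2-fold apart either way. The median over these genes was -0.01. Without the WT member rich in Igkc the counts were 113 and 111. Among immature dendritic cells 108 of 4438 genes (2.43%) were at least 2-fold higher and 156 (3.52%) lower, 5.95% either way. Dpf2 itself was detected in 16 of 61 WT members at 36.2 UPM (22.7 to 54.8) and in 11 of 72 KO members at 16.6 (8.59 to 29.0). It fell short of the count needed for eligibility. In the other cells Dpf2 stood at 33.01 in WT and 19.3 in KO, and the labels do not give the deleted part, so reads from outside it would check nothing.

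The chemokines that mature dendritic cells make for T cells were higher in the KO library. Ccl22 stood at 93.9 UPM in WT (71.1 to 122) and 795 in KO (731 to 863), 8.47-fold higher (6.45 to 11.3), with a UMI in 18 of 61 and 45 of 72 cells. Single WT members held 0 to 21 Ccl22 UMIs with a median of 0, and KO members 0 to 63 with a median of 2, so the cells overlap. After thinning to 2000 UMIs, 9.84% of WT members (3.70% to 20.2%) and 38.9% of KO members (27.6% to 51.1%) had a Ccl22 UMI, against 0.342% and 2.95% of plasma cells. Ccl17 stood at 112 in WT (86.9 to 142) and 479 in KO (430 to 533), 4.28-fold higher (3.29 to 5.64), in 16 and 41 cells. Both were also higher in KO among immature dendritic cells, Ccl22 at 16.5 against 103 and Ccl17 at 20.2 against 153. In all other cells Ccl22 stood at 12.96 and 78.8 and Ccl17 at 6.49 and 71.0, so the difference was not particular to the members. Without its 3 richest cells in each library Ccl22 stood at 35.8 in WT and 598 in KO.

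Ccl22 and Ccl17 were counted in the same cells. In KO 35 members had both, 10 Ccl22 only, 6 Ccl17 only and 21 neither. In WT 8 had both, 10 Ccl22 only, 8 Ccl17 only and 35 neither.

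Chemokines of other kinds did not share this pattern. Of 14 listed, 11 were eligible, 2 were at least 2-fold higher (Ccl17 and Ccl22) and 2 lower, and the list median was 0.09. Cxcl9 and Cxcl10 encode CXCR3 ligands induced by interferon gamma. Cxcl9 stood at 226 in WT and 105 in KO (log2 ratio -1.03), and Cxcl10 at 461 and 224 (-1.01). The neutrophil chemokine Cxcl2 stood at 540 and 594.

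Genes of migration and cell shape leaned towards KO. With Ccr7, Fscn1 and Cacnb3 left out as rule genes, 18 of 25 were eligible, 14 were higher and 4 lower, 4 of the higher by at least 2-fold, and the median was 0.47. Mreg encodes melanoregulin, a protein of organelle transport that marks mature dendritic cells. It stood at 80.7 in WT and 427 in KO, 5.29-fold higher (3.90 to 7.30), with a UMI in 16 and 44 cells. Samsn1, an adaptor that affects actin, stood at 476 and 1125 (log2 ratio 1.22), and Cd63, a tetraspanin of endosomes, at 65.9 and 155 (1.12). Among members with a rule sum of 4 to 7, Cd63 was not higher in KO, at 52.97 in WT and 45.6 in KO. At sums of 8 to 15 it stood at 21.6 and 90.2. At 16 or more it stood at 407 and 454, from 3 WT and 16 KO cells. The part of this mix of rule sums in the pooled Cd63 ratio was not tested. Dock8 is needed for dendritic cells to crawl through tissue, and it stood at 31.3 and 88.7 (1.26). The integrin subunit Itga4 stood at 652 and 1068 and the actin-linked Marcksl1 at 443 and 729, both under 2-fold. Of 8 chemokine receptors of the tissue stage only 4 were eligible, none 2-fold apart.

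Costimulation split between its classic pair and the tumour necrosis factor ligands. Cd80 and Cd86 encode the ligands of CD28: Cd80 stood at 507 in WT and 561 in KO (log2 ratio 0.14) and Cd86 at 1518 and 1512 (-0.01). Cd83, which stabilises MHC class II at the surface, stood at 708 and 1031 (0.54), and Cd40, the receptor for T cell help, at 92.2 and 145 (0.61). Tnfsf4, the OX40 ligand, stood at 42.8 and 157 (1.66, interval 1.12 to 2.20), in 8 and 30 cells. Tnfsf9, the 4-1BB ligand, stood at 47.7 and 114 (1.10), and Ly75, the endocytic receptor DEC-205, at 112 and 287 (1.28). In all, 7 of the 8 eligible genes were higher in KO and 3 by at least 2-fold, with a median of 0.57.

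**Figure D2:**
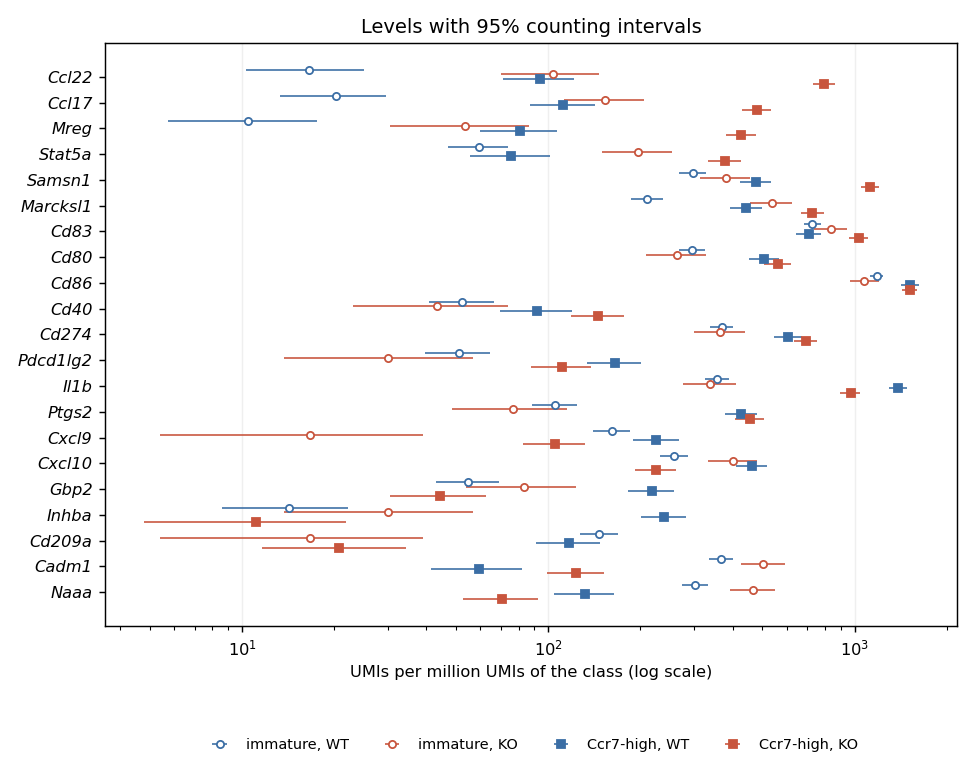
Levels of 21 genes in immature (open circles) and Ccr7-high (filled squares) dendritic cells of the WT (blue) and KO (red) libraries, on a log axis of UMIs per 1000000 UMIs of the class, with 95% Poisson intervals for counting error. Ccl22 reached 795 in KO Ccr7-high cells against 93.9 in WT, while Cd86 stood at 1512 and 1518.

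Regulatory surface genes differed little. Cd274 (PD-L1) stood at 608 and 693. After thinning it was in 59.0% of WT and 70.8% of KO members and in 73.0% and 64.6% of plasma cells, so its presence does not mark the members. Pdcd1lg2 (PD-L2) stood at 165 and 111, and the list median was -0.08 over 9 eligible genes. The exception past 2-fold was Ebi3, a subunit of the cytokines IL-27 and IL-35, at 16.5 in WT and 76.2 in KO (log2 ratio 1.70), in 9 and 29 cells.

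Few cytokine genes were deep enough to compare, 5 of 16. Il1b, an inflammatory cytokine, stood at 1388 in WT (1296 to 1485) and 970 in KO (899 to 1044). Il12b, shared by IL-12 and IL-23, stood at 52.7 and 132 (log2 ratio 1.18), but 27 of the 32 WT UMIs came from 1 cell. Tnf stood at 67.5 and 133 (0.88). Inhba, the subunit of activin A, had the lowest ratio of all genes ranked: 239 UPM in WT (201 to 281) and 11.1 in KO (4.79 to 21.8), 21.5-fold lower in KO (10.6 to 50.8). It had a UMI in 21 of 61 WT and 6 of 72 KO members, and 97 of the 145 WT UMIs lay in 3 cells. Without the 3 richest cells of each library it stood at 82.8 and 4.31. All other cells had the same order, at 106 and 54.95. Immature cells had too few Inhba UMIs to be eligible, at 14.2 UPM in WT and 30.0 in KO.

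Cytokine receptors gave a median of -0.13 over 20 eligible of 30. Only Il7r, the receptor chain for IL-7 and TSLP, was past 2-fold, at 219 in WT and 76.2 in KO (log2 ratio -1.41), in 41 and 25 cells. Immature cells had the same order, at 129 and 50.02.

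Among 26 eligible transcription factors of dendritic cells, 16 were higher in KO and 10 lower, with a median of 0.20. The 3 past 2-fold were all higher. Stat5a, which acts downstream of GM-CSF and TSLP, stood at 75.7 in WT (55.5 to 101) and 377 in KO (333 to 424), 4.98-fold higher (3.63 to 6.96). It had a UMI in 27 of 61 and 60 of 72 cells, with a median of 0 and 3 UMIs. In immature cells it stood at 59.2 and 197, and in all other cells at 87.2 and 107. Irf4, a factor of type 2 dendritic cells and of their migration, stood at 115 and 255 (log2 ratio 1.08). Nr4a3, a nuclear receptor needed for CCR7-dependent migration, stood at 879 and 1970 (1.15). Irf8, the factor of type 1 cells, stood at 176 and 105 (-0.69), and Zbtb46 at 104 and 150 (0.49).

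NF-kB signalling drives dendritic cell maturation. Of its 24 eligible subunits and targets, 19 were higher in KO and 5 lower, with a median of 0.35. In immature cells 20 of 24 were higher in KO and 4 lower, with a median of 0.42. So the lean was not particular to the members. In the members Rel stood at 2392 in WT and 3912 in KO (log2 ratio 0.71), Nfkb1 at 1228 and 1554 (0.34) and Relb at 130 and 144. Only Stat5a and Bcl2l1 were past 2-fold. Bcl2l1 encodes the survival protein BCL-XL and stood at 49.4 and 173 (1.62), in 15 and 34 cells. Bcl2a1a, a related survival gene, stood at 79.0 and 187 (1.15), but its near-identical copies Bcl2a1b (425 and 752) and Bcl2a1d (426 and 711) can share reads with it. Bcl2 went the other way, at 98.8 and 51.3 (-0.83).

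Antigen presentation on MHC class I leaned towards WT. Of 20 eligible genes, 19 were lower in KO, 3 of them at least 2-fold, and the median was -0.41. Those 3 were the immunoproteasome subunit Psmb9 at 160 and 62.3 (log2 ratio -1.23), the nonclassical heavy chain H2-T23 at 120 and 51.3 (-1.09) and the chaperone Calr at 614 and 288 (-1.07). The classical heavy chain H2-K1 was close, at 1569 and 1538, as was B2m at 1324 and 1215. For class II, with the rule genes Cd74 and H2-Ab1 left out, none of 15 eligible genes was 2-fold apart and the median was -0.14. H2-Aa stood at 4490 and 4124, H2-Eb1 at 4014 and 3130, and the lysosomal protease Lgmn at 413 and 745 (0.84).

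Interferon gamma targets were split. Of 26 listed, 10 were eligible, and 7 were lower and 3 higher, 4 lower by at least 2-fold, with a median of -0.79. Gbp2, a GTPase that attacks pathogen vacuoles, stood at 217 in WT (182 to 258) and 44.3 in KO (30.3 to 62.6), 4.90-fold lower in KO (3.31 to 7.46), in 37 and 14 cells. Irgm1, an immunity-related GTPase, stood at 85.6 and 16.6 (log2 ratio -1.84), in 24 and 9 cells. The other 2 were Cxcl9 and Cxcl10. In immature cells Gbp2 stood at 54.7 in WT and 83.4 in KO, and the list median was -0.02.

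Type I interferon targets had different medians in the 2 classes. In the members 6 of 14 were higher and 8 lower in KO, with a median of -0.21 and only Bst2 past 2-fold (153 and 66.5). In immature cells all 14 eligible genes were higher in KO, 7 by at least 2-fold, with a median of 0.99. Isg15, a ubiquitin-like protein, stood at 310 in WT members and 187 in KO members but at 69.7 and 213 in immature cells. Ifit1, which binds foreign RNA, stood at 44.5 and 84.5 in members and at 18.7 and 273 in immature cells. The immature class of KO held 32 cells, and the difference between the classes was not tested.

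Lectins and other uptake receptors of 29 listed were mostly too thin, and 9 were eligible with a median of -0.50. Cd209a, a lectin of type 2 dendritic cells and monocyte-derived cells, stood at 117 in WT and 20.8 in KO, 5.63-fold lower in KO (3.19 to 10.6), in 24 and 8 cells. Its log2 ratio was -2.04, but -0.71 in cells with Y-linked RNA only. Immature cells stood at 147 and 16.7, but Cd209a helped to choose them, so that order supports nothing. All other cells had the same order, 11.1 and 2.01. Cd14, the lipopolysaccharide co-receptor of monocytes and macrophages, stood at 161 and 52.6 (log2 ratio -1.45). The lysozyme gene Lyz2, a monocyte marker, was also lower, at 306 and 61.0 (-2.16), beside the monocyte list given above.

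**Figure D3:**
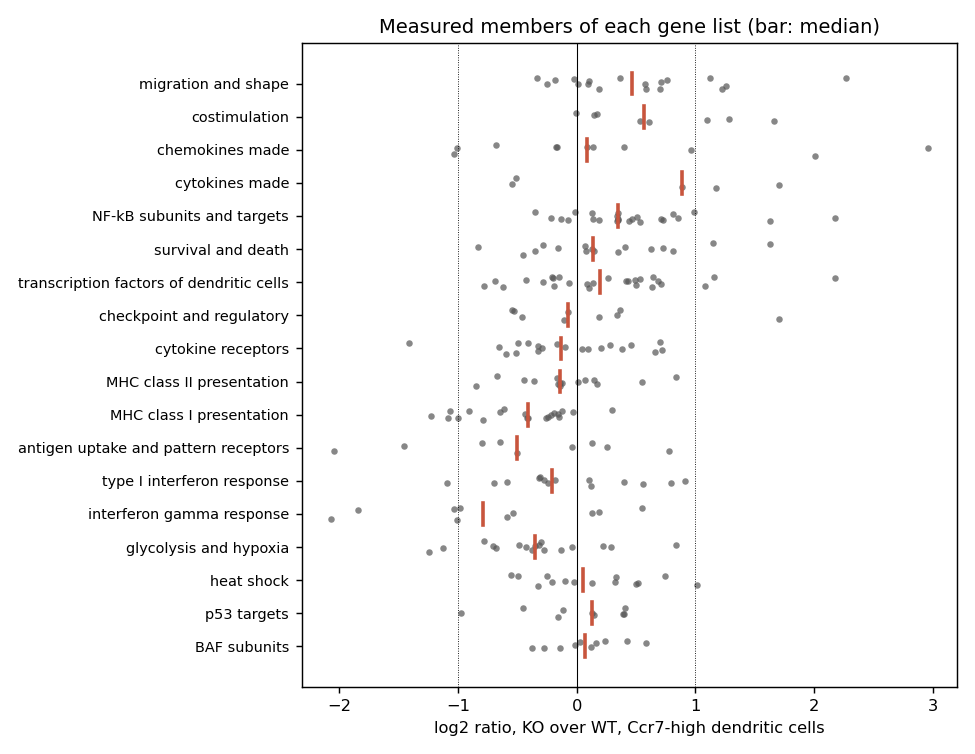
Log2 ratio of KO over WT in Ccr7-high dendritic cells for the eligible genes of 18 lists; each point is 1 gene, the red bar is the list median and dotted lines mark 2-fold. Costimulation has a median of 0.57 and MHC class I presentation one of -0.41, against -0.01 over all eligible genes.

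The ranking by size named other genes that were higher in KO. Tbc1d4, a Rab GTPase activator known for glucose transporter traffic, stood at 226 in WT and 1226 in KO, 5.44-fold higher (4.54 to 6.56), in 29 and 60 cells. Immature cells had 177 and 363. Adam23, a disintegrin family protein, stood at 11.5 and 137 (log2 ratio 2.77), Ppfibp2, a liprin, at 26.3 and 157 (2.20), and Hsd17b11, a lipid droplet enzyme, at 36.2 and 165 (1.92). The zinc finger gene Zfp438 stood at 9.88 and 87.3 (2.29), and the carbonic anhydrase gene Car2 at 8.23 and 69.3 (2.12). Apol7c, an apolipoprotein L family gene, had 1 UMI in WT members and 63 in KO members, 53.01-fold higher with a counting interval of 9.17 to 2127. Of those 63 UMIs, 48 came from 3 cells, and 8 KO members had any. Its log2 ratio was 3.06, but 0.65 in Xist-only cells. Tmem267, a membrane protein gene, stood at 283 and 1290 in the members and at 155 and 706 in all other cells. In the members 3 cells held 117 of its 172 WT UMIs, and 3 cells held 355 of its 931 KO UMIs. Its order turned among the 13 WT and 28 KO members with a UMI of Fscn1, Cacnb3 or Il4i1. There it stood at 654 in WT and 146 in KO.

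The same ranking named genes that were lower in KO. The endoplasmic reticulum chaperone Hsp90b1 stood at 1036 in WT and 227 in KO (log2 ratio -2.14), the disulfide isomerase Pdia4 at 105 and 12.5 (-2.36, but -0.73 after thinning) and Sdf2l1 at 153 and 30.5 (-2.01). Without the WT member rich in Igkc the ratios were -1.62, -1.87 and -1.96. All other cells had the same order, Hsp90b1 at 1346 and 477, Pdia4 at 184 and 61.0 and Sdf2l1 at 95.03 and 30.9. Mzb1 and Ly6d, markers of plasma cells and plasmacytoid cells, had ratios of -2.27 and -2.95 with that member and -0.72 and -1.22 without it. Ly6a, an interferon-responsive surface protein, stood at 140 and 16.6 (-2.49), and in all other cells at 217 and 75.1. Soga1 stood at 168 and 18.01 (-2.67), Zfp710, a zinc finger gene, at 85.6 and 6.93 (-2.50), Arl15, a small GTPase gene, at 227 and 38.8 (-2.28, but -0.41 among members with Fscn1, Cacnb3 or Il4i1), and Rnf217, a ubiquitin ligase gene, at 72.4 and 9.70 (-2.07). Ocln, encoding the tight junction protein occludin, stood at 74.1 and 6.93 (-2.31), with 33 of its 45 WT UMIs in 1 cell.

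The p53 target and heat shock lists were near the background median. None of 9 eligible p53 targets was 2-fold apart. Cdkn1a, the cell cycle inhibitor induced by p53, stood at 318 in WT and 353 in KO, and Mdm2 at 525 and 485. Heat shock genes had a median of 0.05 over 14, with Hspa1a at 125 and 263 (log2 ratio 1.02). Glycolysis and hypoxia leaned towards WT: of 17 eligible genes 14 were lower in KO, with a median of -0.35. The lactate carrier Slc16a3 (85.6 and 30.5) and the oxidase Ero1l (142 and 59.6) were past 2-fold. The desaturase gene Scd1 stood at 16.5 and 73.4 (1.66) and Apoe, the lipid carrier of macrophages, at 62.6 and 20.8 (-1.24). No other BAF subunit of 10 eligible was 2-fold apart, and the list median was 0.07.

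Ccr7-high and immature cells of the same library were then set side by side. The members were chosen on these counts, so the values describe the class. Of 4892 eligible genes in WT, 92 (1.88%) were at least 2-fold higher in the members and 74 (1.51%) lower, 3.39% either way. In KO 141 of 3236 (4.36%) were higher and 101 (3.12%) lower, 7.48% either way. Of 3198 genes eligible in both libraries, 28 (0.876%) were at least 2-fold higher in each and 16 (0.5%) lower.

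By the ranking rule these genes were higher in the members of both libraries. Ptgs2, the inducible cyclooxygenase, stood at 105 in immature and 426 in Ccr7-high cells of WT, and at 76.7 and 454 in KO (log2 ratios 1.92 and 2.42). Il1b stood at 356 and 1388 in WT and 337 and 970 in KO (1.93 and 1.498). Acod1, the enzyme that makes itaconate, had ratios of 1.96 and 1.56, but -1.37 in KO when the rule left out Ccr7. Mreg had 2.15 and 2.79, Ccl22 1.97 and 2.83, and Ccl17 2.01 and 1.58. Pdcd1lg2 had 1.52 and 1.59, and the fatty acid carrier Fabp5 1.66 and 1.75. The rest of that ranking comprised Adgrg6, Mmd, Flrt3, Creb5, Bcl2a1a, Nrp2 and Cyp4f18, with ratios between 1.20 and 2.07.

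Genes of type 1 dendritic cells were lower in the members of both libraries. All 14 eligible in WT were lower, 9 by at least 2-fold, with a median of -1.22, and all 8 in KO, 6 by at least 2-fold, with a median of -1.72. The adhesion molecule Cadm1 stood at 367 in immature and 59.3 in Ccr7-high cells of WT, and at 504 and 123 in KO. The lysosomal hydrolase Naaa stood at 301 and 132 in WT and 467 and 70.7 in KO. Wdfy4, needed for cross-presentation, stood at 308 and 142 in WT and 427 and 144 in KO. Ppt1 and Rab7b, which act in lysosomes and endosomes, had ratios of -1.55 and -1.42 in WT and -2.15 and -2.21 in KO. The order depended on the reference: against the 74 immature WT cells with more type 2 than type 1 genes, the type 1 list had a median of 0.76 and Cadm1 a ratio of 1.51. The immature class held 38 type 1-like and 74 type 2-like cells in WT and 11 and 7 in KO, and Xcr1, Clec9a and Cd209a helped to choose it. Also lower in both libraries were St3gal5, Pclaf, Cdk14, Cdc14a, Mctp1, Tns3, Shtn1, Lmna and Fnip2, with ratios between -1.01 and -2.49.

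Other lists gave these values. Costimulation genes had a median of 0.36 in WT, none of 7 past 2-fold, and 1.06 in KO, 4 of 7 past 2-fold. Those were Cd80 (263 in immature and 561 in Ccr7-high KO cells), Cd40 (43.3 and 145), Tnfsf9 (36.7 and 114) and Ly75 (56.7 and 287). Chemokines had medians of 0.81 and 0.67. Survival genes had 0.16 and 0.64, with Bcl2a1b, Bcl2a1d and Bcl2a1a at least 2-fold higher in each library. NF-kB genes had 0.33 and 0.39. Type I interferon targets had 0.65 in WT, 15 of 16 higher, and -0.51 in KO, all 13 lower. The KO median turned positive in Xist-only cells, against type 1-like immature cells and with the relaxed B cell gate, up to 1.39. Heat shock genes were lower in both, with medians of -0.38 and -0.34, but the WT median was 0.033 against type 2-like immature cells and the KO median 0.016 in cells with Y-linked RNA only. These differences between the libraries were not tested.

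**Figure D4:**
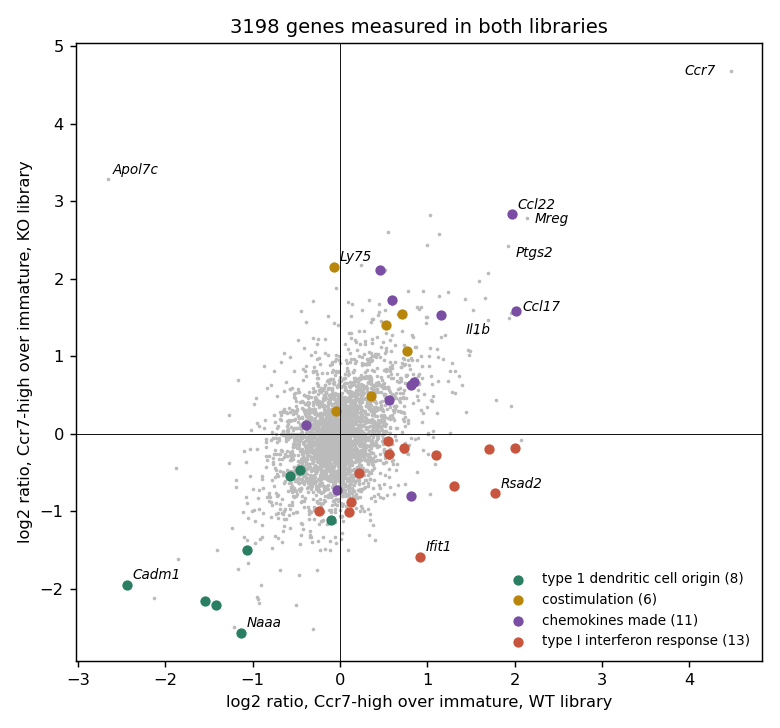
Log2 ratio of Ccr7-high over immature dendritic cells in the WT library (horizontal) and the KO library (vertical), 1 point per gene for 3198 genes, with 4 lists in colour. Ccl22, Ccl17 and Mreg are higher in both libraries, type 1 genes lower in both, and Apol7c lies at -2.66 in WT and 3.28 in KO.

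The members also varied among themselves. They were split by rule sum into 4 to 7 (44 WT and 39 KO cells), 8 to 15 (14 and 17) and at least 16 (3 and 16). This split uses the rule's own genes and rises with depth, with median UMIs of 9564.5, 9818.5 and 11364 in WT and 8610, 10632 and 10728 in KO. In KO, Ccl22 stood at 297 UPM in the lowest band, 431 in the middle band and 2237 (2019 to 2473) in the highest. Ccl17 stood at 234, 466 and 996. In WT, Ccl22 stood at 59.9, 173 and 203 and Ccl17 at 87.5, 180 and 145, the last from 3 cells. For Ccl22 in the lowest band, counting intervals ran from 39.1 to 87.7 (WT) and from 242 to 359 (KO).

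Other genes were read in the same bands of KO. Cd40 stood at 82.7, 85.2 and 344, Cd63 at 45.6, 90.2 and 454, and Relb at 85.6, 140 and 268. Cd83 stood at 882, 836 and 1562 and Cd274 at 491, 656 and 1148, both highest in the top band. Cd86 stood at 1589, 1087 and 1847, Marcksl1 at 662, 456 and 1183 and Traf1, a signalling adaptor, at 242, 205 and 309, each lowest in the middle band. Ccl5 stood at 377, 301 and 431 and Tmem123, a surface mucin, at 328, 321 and 822. In WT Cd40 stood at 78.3, 144 and 58.1, Cd63 at 52.97, 21.6 and 407, and Relb at 101, 166 and 349. The last value of each came from 3 cells. In the lowest band Cd63 and Relb were thus not higher in KO than in WT. Plac8 in KO ran the other way, at 979, 606 and 309. In WT Plac8 stood at 2001, 1355 and 1424, above the KO value in every band. Aldh1a2, which makes retinoic acid in gut dendritic cells, was thin, with a UMI in 5 of 61 WT and 12 of 72 KO members.

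**Figure D5:**
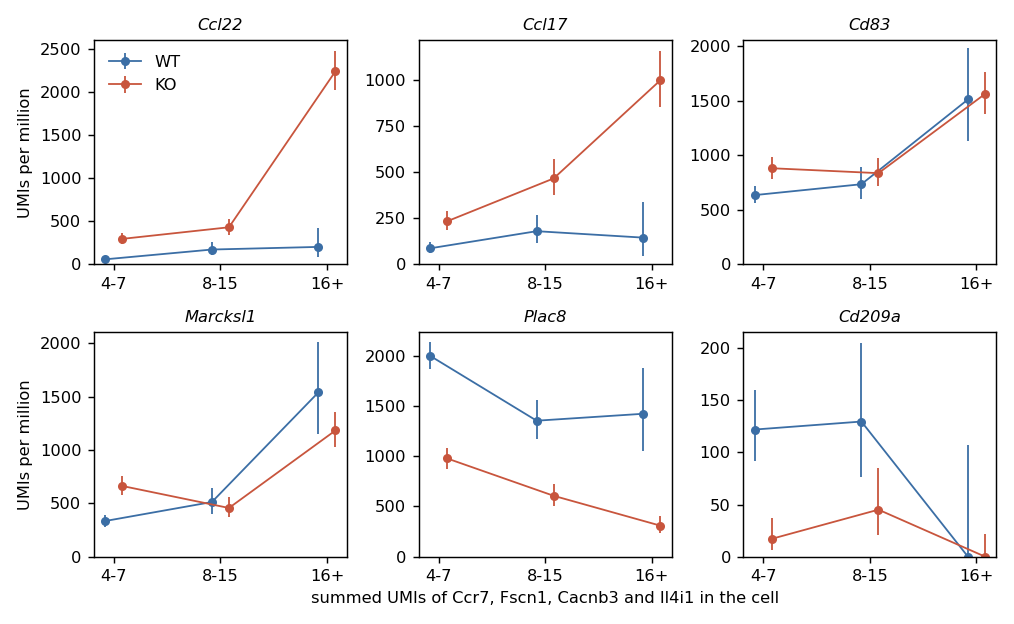
Levels of 6 genes in Ccr7-high dendritic cells by the cell's summed UMIs of Ccr7, Fscn1, Cacnb3 and Il4i1; the vertical axes are UMIs per 1000000 UMIs of the class from 0, blue is WT, red is KO and bars are 95% Poisson intervals for counting error. Ccl22 in KO goes from 297 in the lowest band to 2237 in the highest, and Plac8 from 979 to 309.

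Marks of origin were mixed. Type 2 genes (Cd209a, Clec10a, Mgl2 and Sirpa) without type 1 genes (Xcr1, Clec9a, Cadm1 and Tlr3) were found in 38 of 61 WT and 36 of 72 KO members. Type 1 genes alone were found in 3 and 5, both sets in 14 and 20, and neither in 6 and 11. These are counts of cells with any UMI and depend on depth.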

How the data were processed

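Single-cell RNA was measured in 1 WT and 1 Dpf2 KO library of sorted intestinal immune cells. The authors deposited unnormalised UMI counts for each gene and barcode. Cell Ranger 7.0.0 and the build GRCm38 are named in the submitters' processing notes. Which annotation was used, and whether introns were counted, is not stated there. Barcodes with at least 500 UMIs, 200 genes and at most 20% mitochondrial UMIs were kept. Members were chosen by the counts given above, and members and gene lists were chosen with earlier results of these data known.

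UMIs were summed per class and library with numpy 2.4.6 and pandas 2.3.3. Levels carry exact Poisson intervals, ratios conditional binomial intervals and shares Clopper-Pearson intervals, all at 95% (scipy 1.17.1). The calculation was tested on simulated counts. Doublets were called per library with Scrublet in scanpy 1.11.5 and kept, and leaving them out was an alternative. PCR and sampling between mice are outside the intervals, as are differences between cells for levels and ratios.

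Named genes were Dpf2, the rule genes, Ccl22, the 12 highest and 12 lowest eligible genes of KO over WT, the 15 highest and lowest by the smaller ratio of members over immature cells in both libraries, and list members chosen for their role. A gene that this rule names is not reported here. Immunoglobulin, T cell receptor, sex-linked, haemoglobin and mitochondrial genes, unnamed models and markers of other cell types were left out of the ranking, with up to 4 markers named apart. Where 2 gene IDs share a symbol, the ID with more UMIs was used. Alternatives were other added constants, scalings, filters, rule thresholds, thinning to 2000 UMIs, Xist or Y-linked subsets and other immature references. The relaxed B cell gate, the members with other rule genes and the removal of 1 WT cell were chosen after seeing the data.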

Additional observations from a re-analysis of the deposited data

Results flagged for a closer look

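Apol7c differed in opposite directions between the libraries when Ccr7-high cells were set against immature cells. In WT it stood at 1.65 UMIs per 1000000 UMIs (UPM) in the members (1 UMI) and 63.7 in immature cells (85 UMIs), a log2 ratio of -2.66. In KO it stood at 87.3 in the members (63 UMIs, 48 of them in 3 cells) and had no UMI among 32 immature cells, a log2 ratio of 3.28 after adding 10 UPM. The 95% counting limit of that 0 is 12.3 UPM, and the lower limit of the fold is 6.89, for counting error only. The log2 ratio depends on the amount added and is no bound. The difference between the libraries was not tested.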

How the results depend on the processing

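No paired analysis was possible because each genotype has 1 library, and no library could be left out. Of the 24 genes ranked by KO over WT, 22 kept their direction in every alternative that gave a value and 18 also stayed at least 2-fold apart. Past 2-fold no longer were Pdia4 after thinning (-0.73), Arl15 (-0.41) and Cd209a (-0.92) among members with Fscn1, Cacnb3 or Il4i1, Cd209a in Y-linked-only cells (-0.71) and Apol7c in Xist-only cells (0.65). The exceptions in direction were Ocln, at 0 UMIs in both libraries among members with Fscn1, Cacnb3 or Il4i1, and Tmem267 (-2.09 there). Of the 25 list medians, 11 kept their sign throughout: migration, costimulation, transcription factors, NF-kB, MHC class I, uptake, type 1 origin, survival, immediate early genes, interferon gamma and glycolysis. Depth limits the low genes, since 50 UMIs over both classes was the floor. The causes of the changes below were not tested, except that stricter filters, thinning and larger added constants count fewer genes by construction.

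Counts of genes at least 2-fold higher and lower in KO than WT members, 122 and 118 above, were 36 and 37 with 50 UPM added, 39 and 32 after thinning, 41 and 28 among genes with 200 UMIs and 279 and 357 without the filter. The lower count was 42 in cells with Xist only and 70 in members with Fscn1, Cacnb3 or Il4i1. Members over immature cells in WT, 92 and 74 above, gave 29 and 11, 35 and 33, 26 and 19, and 184 and 149 in the same order, and 296 and 200 against type 1-like immature cells. The lower count was 149 with 1 UPM added, 44 with a rule sum of at least 3, 165 with at least 6, and 40 against type 2-like immature cells. With Fscn1, Cacnb3 or Il4i1 required they were 245 and 434. In KO, 141 and 101 above, the same order gave 63 and 38, 52 and 21, 54 and 18, and 449 and 581, then 435 and 231 against type 1-like cells, 278 and 259 with the relaxed B cell gate and 70 and 64 in Xist-only cells. The lower count was 242 for the rule sum without Ccr7, 35 in cells with Y-linked RNA only and 175 with Fscn1, Cacnb3 or Il4i1 required.

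Single ratios turned as follows. Against type 2-like immature WT cells, the type 1 list median was 0.76, St3gal5 0.023, Cadm1 1.51, Ppt1 0.82, Rab7b 0.37, Mctp1 0.16, Naaa 0.72, Wdfy4 0.34 and Shtn1 0.43. In KO, Acod1 was -1.37 and Cyp4f18 -0.20 without Ccr7 in the rule, and Cyp4f18 -0.041 with the other rule genes required. In Xist-only cells Fabp5 was -0.43 in WT, and Tns3 0.047 and Pdcd1lg2 -0.54 in KO. In Y-linked-only KO cells Pclaf was 2.03 and Shtn1 0.37.

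The ratio of the members' share in KO to that in WT was 1.48 of all cells and 2.22 of the dendritic cells. It was 3.77 and 9.48 without Ccr7 in the rule, and 2.70 and 5.31 with the other rule genes required. When cells were chosen after thinning it was 0.843 and 1.51, from 47 WT and 31 KO members. That choice used a rule sum of at least 2 and left the other gates unchanged. So it is not the main rule at equal depth. With the relaxed B cell gate the ratio was 2.69 of all cells. A rule without Ccr7 left 4 WT members, and type 2-like immature cells numbered 7 in KO, so those comparisons, which needed 10 cells, were not made.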
